A study of Mus musculus with 9 samples.

Results

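The integrated stress response is the program by which cells under nutrient, protein folding or mitochondrial stress slow translation and adjust their metabolism. Its 10 genes described here are *Atf4*, *Ddit3*, *Trib3*, *Chac1*, *Sesn2*, *Asns*, *Psat1*, *Phgdh*, *Eif2ak3* and *Eif2ak4*. They were taken by name from the deposited table, which lists 15184 genes, and all 10 were found in it. All 10 were well covered, and the lowest value of any member in any library was 1631 recovered reads, for *Eif2ak3*.

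In this pathway a sensor kinase such as PERK, encoded by *Eif2ak3*, or GCN2, encoded by *Eif2ak4*, phosphorylates the translation initiation factor eIF2. Most mRNAs are then translated less, while the mRNA of the transcription factor ATF4 is translated more, because short upstream reading frames in it normally hold ribosomes back. ATF4 binds DNA with C/EBP partners at composite elements known as CARE and raises genes for amino acid synthesis and transport, for tRNA charging and for feedback on the pathway itself. RNA-Seq measures mRNA, so neither eIF2 phosphorylation nor ATF4 protein was measured in these data.

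The libraries came from polyA+ RNA of mouse embryonic fibroblasts (MEFs), which are primary cells from mid-gestation embryos, wild-type by the methods of the study. The groups were 3 libraries labelled Empty, with the genotype empty vector, and 6 with the genotype Hnrnpk_SAM, of which 3 were labelled SAM1 and 3 SAM2. SAM, the synergistic activation mediator, is a CRISPR system in which a catalytically dead Cas9 and recruited activators are directed to a promoter by a guide RNA, here to that of *Hnrnpk*, which encodes an RNA-binding protein. By the methods of the study, cells given the *Hnrnpk* guides carried the lentiviral activator vectors and were selected with blasticidin and hygromycin. The controls, labelled empty vector, had the vector lentiSAMv2 with a guide described as non-targeting. For it the methods print the same sequence as for the second *Hnrnpk* guide. Whether the controls had the other activator vector and the same selection is not stated separately. The labels do not say which guide each line carried, their extraction protocol names only empty vector and sgRNA2 cells, and they name no treatment. Whether SAM1 and SAM2 carry different guides is therefore not known here. The lines are drug-selected populations, and how many separate derivations each stands for is not stated. The sources used here do not say whether the libraries of a line came from separate cultures, so the p-values below measure the spread between libraries, which may be technical.

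*Hnrnpk* mRNA itself, the target of the activator, differed little from Empty on the deposited scale. Its normalized counts (mean ± SD, n = 3 each) were 25773 ± 621 for Empty, 23922 ± 264 for SAM1 and 26563 ± 321 for SAM2. The log2 difference from Empty was -0.11 in SAM1 (adjusted p = 0.00252 from limma) and 0.044 in SAM2 (adjusted p = 0.159), where every library lay above those of Empty. With quantile normalization the values for *Hnrnpk* became 0.094 and 0.22 (adjusted p = 0.00501 and 4.59e-06 from limma), and with every library scaled to the same total 0.035 and 0.15 (adjusted p = 0.266 and 0.000335), so the direction in SAM1 depends on the scaling. A rise as named by the label Hnrnpk_SAM was not seen on the deposited scale, so the directions below belong to the libraries labelled SAM1 and SAM2 and not to a measured rise of *Hnrnpk* mRNA. All values are normalized counts, that is, reads per gene divided by a size factor of the library, and a log2 difference is on the scale of log2(normalized count + 1). Libraries held 41759636 to 49026626 reads on the listed genes. By chi-square per gene the Empty libraries differed most among themselves, by 11.6 to 13.9, and SAM1 replicate 2 stood apart from the others of SAM1, by 8.02 and 9.52, beside 1.46 to 2.34 for the remaining pairs of a group. Summed normalized counts ran from 48686625 to 49041969 in Empty, from 43909125 to 44464106 in SAM1 and from 45390276 to 45489906 in SAM2. Scaling every library to the same total instead moved the median log2 difference of all genes to 0.15 in SAM1 and 0.10 in SAM2, and the members whose call depends on this are named where they are described. All 11 fibroblast markers were in the table and made up 2.07% to 2.59% of the counts in a group, with *Fn1* the most abundant. Single markers differed, however: 8 fell and 3 rose in SAM1, and 4 fell and 3 rose in SAM2. By the same test, 36.9% of all genes fell and 37.3% rose in SAM1, and 35.3% fell and 35.2% rose in SAM2. *Dcn* had log2 differences of -2.12 and -2.22 and *Pdgfra* of -0.60 and -0.81. Those that rose in SAM1 were *Pdgfrb*, *Vim* and *S100a4*, at 0.94, 0.55 and 1.30. Those that rose in SAM2 were *Pdgfrb*, *Col1a1* and *Col3a1*, at 0.54, 0.39 and 0.065, while *S100a4* had 0.013 there. Of other cell types, 2 of 6 epithelial, 4 of 5 endothelial, 3 of 6 leukocyte, 4 of 5 neural and 2 of 5 muscle markers were listed. The leukocyte markers *Ptprc*, *Adgre1* and *Itgam* were not among the listed genes. Summed endothelial markers rose from between 301 and 357 in Empty to between 4613 and 4988 in SAM1, nearly all of it *Kdr*, and were between 638 and 689 in SAM2. Summed neural markers were between 2197 and 2358 in Empty, between 8998 and 9169 in SAM1 and between 8276 and 8463 in SAM2, led by *Nes*. Summed muscle markers were between 88.8 and 127 in Empty, between 338 and 365 in SAM1 and between 412 and 457 in SAM2. Summed epithelial markers were between 42.1 and 50.1 in Empty, 110.1 and 113 in SAM1 and 42.7 and 52.4 in SAM2, and summed leukocyte markers between 607 and 728, 944 and 977, and 695 and 739. Their part in the results below was not tested, and in bulk RNA fewer cells of a type and less RNA per cell cannot be told apart.

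Most genes in these libraries differed between groups, which sets the scale for the 10 genes. Adjusted p-values are from limma across all 15184 genes, with 0.05 as the threshold. Against Empty, 74.3% of all genes passed in SAM1, with 36.9% lower and 37.3% higher, and 70.5% passed in SAM2, with 35.2% higher and 35.3% lower. Beside this, all 10 members passed in SAM1, 8 of them lower and 2 higher, and 9 of 10 passed in SAM2, 7 higher and 2 lower. The median log2 difference of the members was -0.36 in SAM1, where that of all genes was 0.0093, and 0.37 in SAM2, where that of all genes was -0.0015. The libraries of a line did not overlap those of Empty in 10 members for SAM1 and 9 for SAM2, beside 74.4% and 73.5% of all genes. With every library scaled to the same total the members split into 2 higher and 6 lower in SAM1 and into 8 higher and 0 lower in SAM2, while 63.8% and 61.3% of the genes called in SAM1 and SAM2 were higher, against 50.3% and 49.9% on the deposited scale. With so many genes past the threshold, the number of members that passed says little by itself, and their directions and sizes are given gene by gene.

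The promoters of the 10 genes were searched for the core of the CARE, TGATGNAA, on both strands from 250 bases before to 50 bases after the start of the canonical transcript in GRCm39. Of the 10 members, 2 held it, *Ddit3* and *Chac1*. So did 374 of 14774 promoters, or 2.53%, of the genes in the table that are named once in the annotation. *Ddit3* has 2 records there, so it is not among these promoters and both of its windows were searched. The match lies in the window of 1 record, while that of the other, which starts at 127126698, held 0. Both matches lie on the strand opposite to the gene and read the same 8 bases there. They are shown on the strand of the gene, 40 bases each, with the match in capitals, because these are the members whose own promoter window carries the letters of an ATF4 site. In *Ddit3* the stretch is chr10:127126345-127126384 and the match begins 199 bases before the start of the record that holds it. In *Chac1* it is chr2:119181514-119181553 with the match 159 bases before the start. Both are on the plus strand.
*Ddit3*: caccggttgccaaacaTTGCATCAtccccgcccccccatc
*Chac1*: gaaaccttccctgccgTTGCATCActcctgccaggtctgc
A match is a description of letters and not a measured site, and elements outside this window were not searched. These 2 genes did not share a pattern in SAM2, where *Ddit3* was below Empty and *Chac1* above it.

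**Figure D1:**
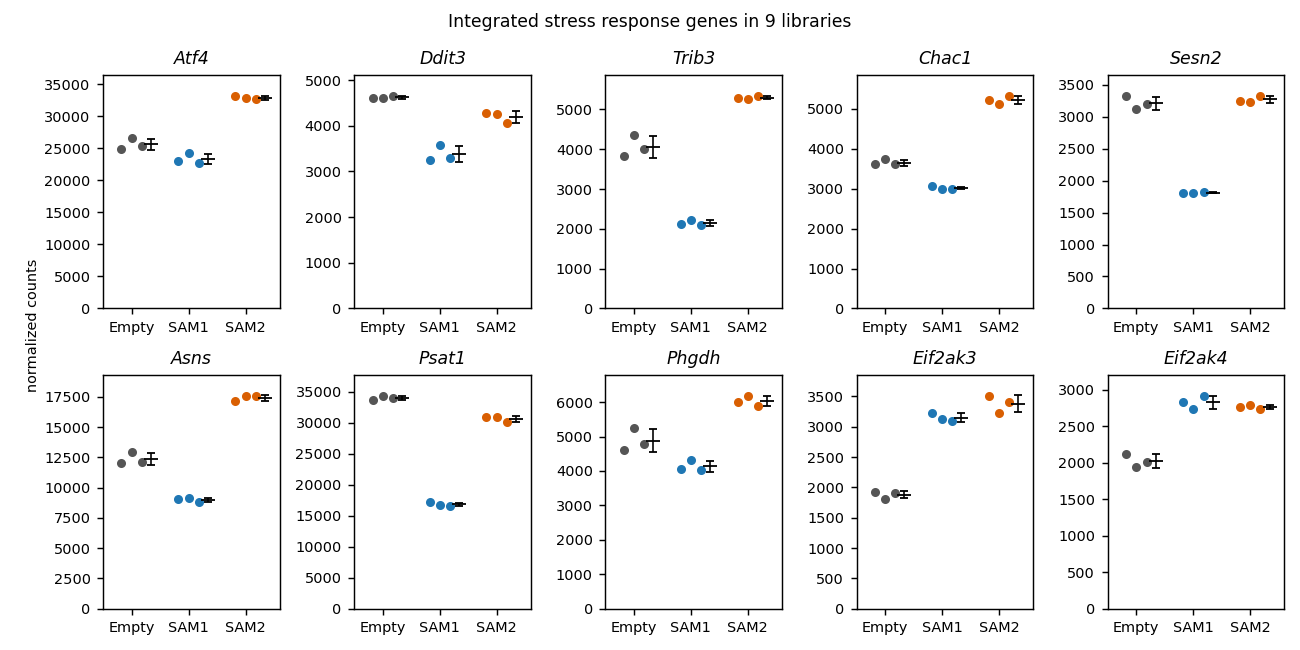
Normalized counts, on a linear axis from 0, of the 10 genes in each of the 9 libraries (points), with the mean and SD of each group of 3 beside them (black). *Atf4*, *Trib3*, *Chac1*, *Asns* and *Phgdh* step from SAM1 up to Empty and then SAM2 without overlap, whereas *Eif2ak3* and *Eif2ak4* lie above Empty in both lines.

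*Atf4* encodes the central transcription factor of the pathway and is located at 80139372 to 80141745 of chromosome 15 (GRCm39, plus strand). The Empty libraries had 24900.1, 26588 and 25338 normalized counts, compared with 22927, 24227 and 22715 in SAM1 and 33170.2, 32793 and 32596 in SAM2. The SAM2 libraries were all above and the SAM1 libraries all below those of Empty, with a wide gap only on the SAM2 side. In SAM2 *Atf4* mRNA rose 1.28-fold, a log2 difference of 0.36 with a standard error of 0.032 (adjusted p = 3.85e-07 from limma), and 0.55 with quantile normalization. In SAM1 it was at 90.9% of Empty, a log2 difference of -0.14 (adjusted p = 0.00187 from limma), but quantile normalization turned this to 0.068 (adjusted p = 0.0755) and equal totals to 0.0053 (adjusted p = 0.896), so the small decrease depends on the scaling. The 85 listed genes within 2 Mb had a median log2 difference of 0.34 in SAM2, so that *Atf4* stood 0.019 above its neighbours there. In SAM1 that median was 0.15, and *Atf4* was 0.28 below it, a gene minus median of -0.28. The 595 other listed genes of chromosome 15 had medians of 0.19 in SAM1 and 0.32 in SAM2, so the shift was not confined to this window. Chromosomes 2 and 6, which hold *Trib3*, *Chac1*, *Eif2ak4*, *Asns* and *Eif2ak3*, had medians of 0.27 and 0.13 in SAM1. In SAM2 these were 0.16 and 0.24. The part of the neighbourhood or of whole chromosomes in the differences of the members was not tested.

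*Ddit3*, which encodes CHOP, a partner of ATF4 and C/EBP proteins linked to cell death in prolonged endoplasmic reticulum (ER) stress, did not follow *Atf4* in SAM2. Its libraries had 4611, 4599 and 4658 normalized counts in Empty, 3255, 3589.6 and 3303 in SAM1 and 4279, 4250.4 and 4053 in SAM2. Every Empty library was above every other, and every SAM1 library below every SAM2 library. The decrease was to 73.2% of Empty in SAM1, a log2 difference of -0.45 with a standard error of 0.039 (adjusted p = 1.78e-07 from limma). In SAM2 it was to 90.7%, a log2 difference of -0.14 (adjusted p = 0.00537 from limma), which fell short of the threshold with equal totals at -0.037 (adjusted p = 0.435). *Ddit3* has 2 records in the annotation, from 127124268 to 127132163 on the plus strand of chromosome 10. It overlaps *Mars1*, *Mbd6* and *Gm4189* on the opposite strand, and the strand setting of the counting is not given in the sources used here, so that although the libraries were made with a directional kit, it is not known here whether its reads and theirs were separated.

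Among the feedback and effector targets, *Trib3* varied most. *Trib3* encodes a pseudokinase that is induced by ATF4 and CHOP and restrains ATF4 in turn. Its values were 3822, 4351 and 4005 normalized counts in Empty, 2111, 2222 and 2092 in SAM1 and 5273, 5269 and 5341 in SAM2. SAM1 libraries therefore lay at 52.8% of the Empty mean and SAM2 libraries at 130.4%, with no overlap among the 3 groups. The log2 difference was -0.92 in SAM1 (standard error 0.043, adjusted p = 4.26e-10 from limma) and 0.39 in SAM2 (adjusted p = 3.40e-06). The 48 listed genes within 2 Mb on chromosome 2 had medians of 0.21 in SAM1 and 0.031 in SAM2, the former opposite in sign to *Trib3*.

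*Chac1* encodes an enzyme that breaks down glutathione and is among the genes most readily induced by ATF4. Its libraries had 3609, 3738 and 3610 normalized counts in Empty, 3062, 2998 and 3000.0 in SAM1, and 5223, 5116 and 5330 in SAM2. The order was that of *Trib3*, but with a smaller decrease in SAM1, to 82.7% of Empty, and a rise to 143.0% in SAM2. The log2 differences were -0.27 in SAM1 (adjusted p = 2.11e-06 from limma) and 0.52 in SAM2 (adjusted p = 4.75e-09), each with a standard error of 0.030. With equal totals the SAM1 value was -0.13 (adjusted p = 0.00135). *Chac1* lies on chromosome 2 from 119180757 to 119184866, where the 65 listed genes within 2 Mb were higher in both lines, with medians of 0.40 in SAM1 and 0.26 in SAM2. Relative to that median *Chac1* was lower in SAM1, at -0.67, and higher in SAM2, at 0.25.

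*Sesn2* encodes a leucine sensor that holds back mTORC1, and p53 can induce it as well as ATF4. It had 3317, 3113 and 3195 normalized counts in Empty, 1809, 1805 and 1817 in SAM1, and 3253, 3227 and 3326 in SAM2. The 3 SAM1 libraries were close together, with an SD of 6.26, and far below the rest, while Empty and SAM2 overlapped. In SAM1 *Sesn2* fell to 56.4% of Empty, a log2 difference of -0.82 with a standard error of 0.033 (adjusted p = 6.83e-11 from limma). In SAM2 the log2 difference was 0.027, with a 95% confidence interval from -0.043 to 0.098 (adjusted p = 0.472 from limma). With equal totals that value became 0.13 (adjusted p = 0.00233), past the threshold.

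**Figure D2:**
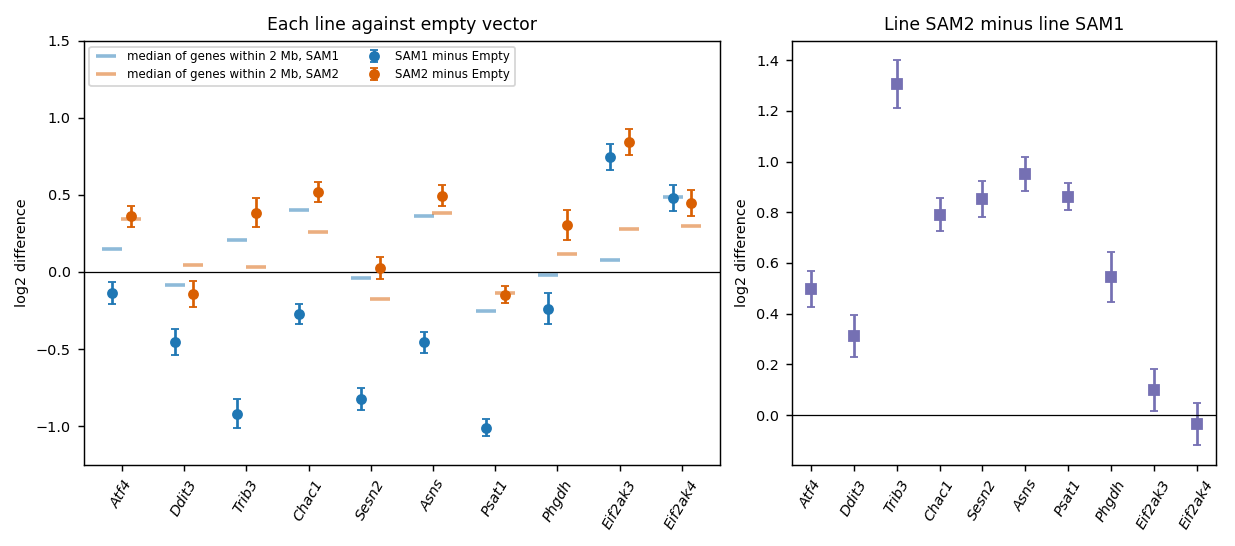
Log2 differences of the 10 genes, with 95% confidence intervals from limma, for SAM1 and SAM2 against Empty (left; short bars are the median of the listed genes within 2 Mb) and for SAM2 minus SAM1 (right). On the right the interval of each gene except *Eif2ak4* lies above 0, with *Trib3* highest at 1.31.

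The enzymes of amino acid synthesis showed the largest single decrease in SAM1. *Asns* encodes asparagine synthetase, whose promoter is a classical example of amino acid control. It had 12050.1, 12900.1 and 12118 normalized counts in Empty, 9037, 9137 and 8814 in SAM1, and 17116, 17555 and 17535 in SAM2. SAM1 was thus at 72.8% and SAM2 at 140.8% of Empty, again without overlap. The log2 difference was -0.46 in SAM1 (adjusted p = 1.79e-08 from limma) and 0.49 in SAM2 (adjusted p = 1.06e-08), each with a standard error of 0.031. The 12 listed genes within 2 Mb on chromosome 6 had medians of 0.36 and 0.38, so that *Asns* stood apart from them in SAM1, by -0.82, more than in SAM2, by 0.11.

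*Psat1* and *Phgdh* encode neighbouring steps of serine synthesis from glycolytic intermediates, yet moved by different amounts. *Psat1*, phosphoserine aminotransferase, had 33629, 34276 and 33969.7 normalized counts in Empty, 17152, 16773 and 16632 in SAM1 and 30887, 30904 and 30106 in SAM2. Its SAM1 libraries had 49.6% of the Empty mean, a log2 difference of -1.01 with a standard error of 0.025 (adjusted p = 8.42e-13 from limma), the largest change of the 10 genes in either line. In SAM2 it was at 90.2% and below Empty in each library, a log2 difference of -0.15 (adjusted p = 0.000149 from limma). Quantile normalization turned that SAM2 value to 0.029 (adjusted p = 0.349), and with equal totals it was -0.045 (adjusted p = 0.132).

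*Phgdh*, phosphoglycerate dehydrogenase, the first enzyme of the route, had 4613, 5246 and 4777 normalized counts in Empty, 4051, 4327 and 4014 in SAM1 and 5998, 6173 and 5892 in SAM2. The groups did not overlap, although the lowest Empty library was close to the highest of SAM1. The log2 difference was -0.24 in SAM1 (adjusted p = 0.000366 from limma) and 0.31 in SAM2 (adjusted p = 4.84e-05), each with a standard error of 0.046. With quantile normalization the SAM1 value was -0.15 (adjusted p = 0.0157) and with equal totals -0.096 (adjusted p = 0.0872). A pseudogene copy, *Phgdh-ps1*, is annotated, so a part of its reads may be split.

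The 2 sensor kinases among the members did not follow the targets: both were higher than Empty in both lines. *Eif2ak3*, on chromosome 6 from 70821461 to 70882235, encodes PERK, the kinase that responds to unfolded proteins in the ER. It had 1926, 1815 and 1905 normalized counts in Empty, 3231, 3132 and 3092 in SAM1 and 3505, 3226 and 3406 in SAM2. All 6 libraries of the lines were far above Empty, and the 2 lines overlapped. The rise was 1.67-fold in SAM1, a log2 difference of 0.74 (adjusted p = 1.11e-09 from limma), and 1.79-fold in SAM2, a log2 difference of 0.84 (adjusted p = 4.77e-10), each with a standard error of 0.039. The 35 listed genes within 2 Mb had medians of 0.080 and 0.28, and *Eif2ak3* stood 0.66 and 0.57 above them.

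*Eif2ak4*, on chromosome 2 from 118218950 to 118305868, encodes GCN2, which senses uncharged tRNA. Its values were 2122, 1935 and 2013 normalized counts in Empty, 2830.4, 2731 and 2912 in SAM1, and 2757, 2784 and 2729.8 in SAM2. Here too both lines were above Empty in every library and overlapped with each other. The log2 difference was 0.48 in SAM1 (adjusted p = 1.03e-07 from limma) and 0.45 in SAM2 (adjusted p = 2.70e-07), each with a standard error of 0.039. The 50 listed genes within 2 Mb had medians of 0.48 in SAM1 and 0.30 in SAM2, so *Eif2ak4* differed from its neighbours by -0.0019 and 0.15. It overlaps *Srp14* on the opposite strand, and the part of the neighbourhood in its rise was not tested.

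Set directly against each other, the lines differed in 9 of the 10 genes, each higher in SAM2, with 0 lower in SAM2 by limma, while 60.3% of all genes passed, 31.1% higher and 29.2% lower. Libraries of the lines did not overlap in 8 of the 10, beside 68.2% of all genes. *Eif2ak4*, the remaining gene, had an unadjusted p of 0.391, and the count lower in SAM2 was 0 by edgeR and DESeq2 on recovered reads as well, but 1 with quantile normalization, which put *Eif2ak4* at -0.090 (adjusted p = 0.0477). The median log2 difference of the 10 genes was 0.67, that of all genes -0.0075. *Trib3* was 2.47 times as high in SAM2 as in SAM1, a log2 difference of 1.31 (adjusted p = 5.47e-11 from limma), and *Asns* followed with 0.95 (adjusted p = 4.68e-11). *Psat1*, *Sesn2* and *Chac1* differed by 0.86, 0.85 and 0.79, *Phgdh* by 0.54, *Atf4* by 0.50 and *Ddit3* by 0.31. At the kinases the difference was small. For *Eif2ak3* it was 0.10 (adjusted p = 0.0398 from limma), with overlapping libraries, and it missed the threshold when SAM1 replicate 2 or 3, SAM2 replicate 1 or 3 or Empty replicate 3 was left out, with values from 0.073 to 0.10 there. It missed it as well with quantile normalization, at 0.053 (adjusted p = 0.243), and without the trend of limma (adjusted p = 0.0726). For *Eif2ak4* it was -0.035, with a 95% confidence interval from -0.12 to 0.050 (adjusted p = 0.462 from limma). Scaling to equal totals left 8 of the genes higher in SAM2, without *Eif2ak3* at 0.061 (adjusted p = 0.177).

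Opposite changes in the lines were thus seen in 5 members, *Atf4*, *Asns*, *Trib3*, *Chac1* and *Phgdh*, which passed the test as lower in SAM1 and as higher in SAM2. Of all genes, 492, or 3.24%, did the same. Scaling to equal totals gave 4 such members, *Asns*, *Trib3*, *Chac1* and *Sesn2*, beside 3% of all genes, and quantile normalization gave 4, *Asns*, *Trib3*, *Chac1* and *Phgdh*, beside 3.33%. *Asns*, *Trib3* and *Chac1* were the members that kept this pattern under each of these scalings. Libraries of the 3 groups fell in the order SAM1, Empty, SAM2 without overlap for 5 members and for 3.84% of all genes. Both comparisons used the same Empty libraries. The members were chosen with earlier results of these data known, so these shares set a scale and are not a test.

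When the 6 Hnrnpk_SAM libraries were taken as 1 group against the 3 of Empty, as in the design of the study, most of these differences did not appear. Of the 10 genes, *Eif2ak3* and *Eif2ak4* were higher, *Ddit3* was lower and 7 did not pass, while 53.9% of all genes passed, 26.8% higher and 27% lower. No overlap was seen in 4 of the 10, beside 53.1% of all genes. *Eif2ak3* had a log2 difference of 0.79 (adjusted p = 1.25e-06 from limma) and *Eif2ak4* of 0.46 (adjusted p = 1.19e-05). The value for *Ddit3* was -0.30 (adjusted p = 0.0265), which missed the threshold with any 1 of the Empty replicates left out (adjusted p = 0.0717, 0.071 and 0.0794 without replicates 1, 2 and 3). It also missed it with equal totals, at -0.17 (adjusted p = 0.122), and with the replicate number as a block (adjusted p = 0.0589). *Psat1* was at -0.58 (adjusted p = 0.0725 from limma), below Empty in all 6 libraries, and passed without SAM2 replicate 1, 2 or 3 (adjusted p = 0.0417, 0.042 and 0.0471). *Atf4* had 0.11, with a 95% confidence interval from -0.22 to 0.44 (adjusted p = 0.545), *Asns* 0.019, from -0.59 to 0.63 (adjusted p = 0.959), and *Trib3* -0.27, from -1.10 to 0.57 (adjusted p = 0.570). In *Asns*, *Trib3* and *Sesn2*, the lines lay on opposite sides of Empty or 1 line lay at its level, and the libraries of the pooled group overlapped Empty. The fit with 3 groups, taking the mean of the lines against Empty, gave the same log2 differences. It called 4 members higher and 4 lower, beside 74.6% of all genes, because its error leaves out the difference between the lines.

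Levels were compared between genes per kilobase of the canonical transcript. *Atf4* was the most abundant of the 10 in each group, at 14709 ± 503 normalized counts per kb (mean ± SD, n = 3 each) for Empty, 13377 ± 470.3 for SAM1 and 18870.2 ± 168 for SAM2. *Psat1* came next with 12961, 6432 and 11692, and then *Ddit3* with 4722, 3455 and 4284, the latter on the length of 1 of its 2 records. The kinases were lowest in Empty, *Eif2ak3* at 413 and *Eif2ak4* at 379. In SAM1 *Sesn2*, at 519, came last and overlapped *Eif2ak4* at 530, whereas in Empty, at 920, it was above both kinases. Neighbours in the order that overlapped between libraries were *Phgdh* and *Asns* in Empty, *Asns* and *Chac1* in SAM1, and *Phgdh* and *Chac1* in SAM2. In SAM2 *Asns*, at 3551, ranked above *Phgdh*, at 3181.

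**Figure D3:**
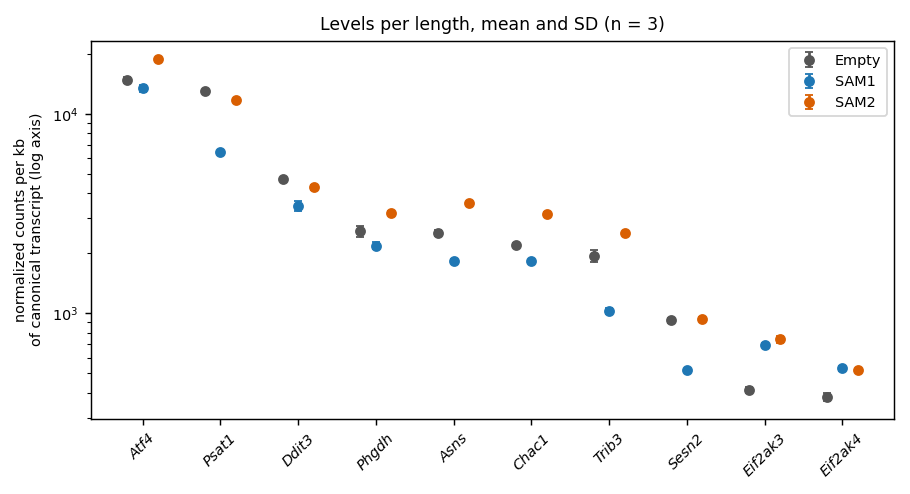
Normalized counts per kilobase of canonical transcript on a log axis, as the mean and SD of 3 libraries for Empty, SAM1 and SAM2, with the genes ordered by their level in Empty. *Atf4* and *Psat1* lie highest, and the level of *Sesn2* drops to that of the kinases in SAM1.

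The genes most like *Atf4* over the 9 libraries, by the Pearson correlation of their log2 values, were *Pard6g* (r = 0.996), *Camk1* (0.995), *Mthfd2* (0.994), *Derl1* (0.993) and *Ppp1r15a* (0.992). The libraries fall into 3 groups, so these coefficients mainly reflect how alike the 3 group means are. *Mthfd2*, a mitochondrial enzyme of one-carbon metabolism, had 8704 ± 86.7 normalized counts (mean ± SD, n = 3 each) for Empty, 7359.7 ± 256 for SAM1 and 13549 ± 125 for SAM2. *Ppp1r15a* encodes GADD34, the phosphatase subunit that reverses eIF2 phosphorylation, and had 5255, 4391 and 7468 normalized counts on average. Of the members, *Chac1* was closest to *Atf4* (r = 0.985, rank 23 of 15183 genes), then *Phgdh* (0.978) and *Asns* (0.968). *Ddit3* (0.471), *Eif2ak3* (0.342) and *Eif2ak4* (0.158) were the least alike.

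The other genes of the pathway were described by 7 lists. Of all genes, 36.9% fell and 37.3% rose in SAM1, and 35.3% fell and 35.2% rose in SAM2. Between the lines, 31.1% were higher in SAM2. The counts below are to be read beside these shares, as a description, because the lists were chosen with earlier results of these data known. A list of 19 genes held eIF2 and its remaining kinases, its exchange factor eIF2B, its phosphatase and other factors, such as regulators of the kinases. Of these 19, 13 fell and 3 rose in SAM1, and 12 fell and 4 rose in SAM2. The remaining kinases did not rise in both lines. *Eif2ak1* had log2 differences of -0.12 in each (adjusted p = 0.00293 and 0.00383 from limma). *Eif2ak2* had -0.087 in SAM1 and 0.22 in SAM2 (adjusted p = 0.188 and 0.00443). *Impact*, a protein that restrains GCN2, fell by 0.61 on the log2 scale in SAM1 and by 0.28 in SAM2 (adjusted p = 1.81e-10 and 5.75e-07 from limma). *Eif2b2*, a subunit of eIF2B, fell by 0.37 and 0.78, more in SAM2, and *Ppp1r15b*, the constitutive phosphatase subunit, fell by 0.51 and 0.13, the latter not past the threshold with equal totals at -0.022 (adjusted p = 0.523) or with quantile normalization at -0.041 (adjusted p = 0.220). With equal totals 7 genes of this list were lower in SAM1 and 8 in SAM2, so its counts depend on the scaling.

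Of 16 further regulators and targets linked to ATF4, 13 fell and 2 rose in SAM1, with a median log2 difference of -0.64. In SAM2, 7 rose and 7 fell, with a median of -0.0059, and 13 of the 16 were higher in SAM2 than in SAM1. *Stc2*, a secreted glycoprotein, fell from 2697 ± 40.8 normalized counts (mean ± SD, n = 3 each) to 303 ± 7.47 for SAM1 and 831 ± 35.5 for SAM2. *Vldlr*, a lipoprotein receptor, fell from 4506 to 1206 in SAM1 and had 4743 in SAM2 (adjusted p = 1.61e-12 and 0.211 from limma), a SAM2 difference of 0.074 that became 0.18 with equal totals (adjusted p = 0.00498). *Atf3*, a transcription factor induced by ATF4, fell from 7363 to 2897 in SAM1 and to 6242 in SAM2.

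The 17 genes of serine, one-carbon, proline and cysteine synthesis beyond *Psat1* and *Phgdh* split 13 lower and 4 higher in SAM1, and 12 higher and 5 lower in SAM2. *Cth*, which makes cysteine from cystathionine, had 4195 ± 36.5 normalized counts (mean ± SD, n = 3 each) for Empty, 1242 ± 25.5 for SAM1 and 6904 ± 120.5 for SAM2, and so took the same order as *Asns*. *Gpt2*, a mitochondrial alanine aminotransferase, did as well, with log2 differences of -1.23 and 0.29. *Psph*, which completes serine synthesis after *Psat1*, fell in both lines, with log2 differences of -1.37 in SAM1 and -0.13 in SAM2 (adjusted p = 3.31e-13 and 0.0018 from limma), a pattern shared with *Psat1*. With equal totals the SAM2 value of *Psph* was -0.029 (adjusted p = 0.442).

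Amino acid transporters were 13, of which 8 fell and 4 rose in SAM1, while 9 rose and 0 fell in SAM2. Their median log2 difference between SAM2 and SAM1 was 1.03, the highest of the lists, and 12 of the 13 were higher in SAM2. *Slc7a3*, a carrier of cationic amino acids, had 254 ± 5.85 normalized counts (mean ± SD, n = 3 each) for Empty, 266 ± 13.0 for SAM1 and 2177 ± 49.7 for SAM2, a log2 difference of 3.09 in SAM2 (adjusted p = 4.02e-14 from limma). In SAM1 *Slc7a3* had 0.066 (adjusted p = 0.269), which passed with equal totals at 0.21 (adjusted p = 0.00275). *Slc7a5*, a carrier of large neutral amino acids, fell in SAM1 by 1.25 on the log2 scale and had -0.082 in SAM2 (adjusted p = 0.0625 from limma, and 0.0455 with TMM factors). *Slc1a4*, a carrier of serine and alanine, fell in SAM1 by 0.99 on the log2 scale and had 0.039 in SAM2 (adjusted p = 0.273 from limma), which passed with quantile normalization at 0.10 and with equal totals at 0.14 (adjusted p = 0.00557 and 0.000651).

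For 20 of 21 listed aminoacyl-tRNA synthetases and export factors found in the table, 14 fell and 4 rose in SAM1, and 12 rose and 6 fell in SAM2, where equal totals left 1 lower. *Tars*, for threonine, rose by 0.17 in SAM1 and 0.75 in SAM2 on the log2 scale. *Cars*, for cysteine, and *Eprs*, for glutamate and proline, fell in SAM1 by 0.75 and 0.65 on the log2 scale, and had -0.099 and -0.069 in SAM2. These SAM2 values of *Cars* and *Eprs* depend on the scaling, at 0.0046 and 0.034 with equal totals (adjusted p = 0.887 and 0.239) and at -0.019 and 0.083 with quantile normalization (adjusted p = 0.540 and 0.00994).

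The list for the other arms of the unfolded protein response, through IRE1 and ATF6, and for ER chaperones differed from the members in its SAM2 median. Of 21 genes of these arms and of ER chaperones, 18 fell and 1 rose in SAM1, and 14 fell and 4 rose in SAM2, with medians of -0.38 and -0.37. With quantile normalization 14 fell and 5 rose in SAM1, and 12 fell and 7 rose in SAM2. Equal totals gave 13 lower and 3 higher in SAM1, and 13 lower and 6 higher in SAM2, so these counts depend on the scaling. *Pdia6*, a disulfide isomerase, went from 25396 to 15439 in SAM1 and 11641 in SAM2, *Hyou1*, a chaperone, from 19014 to 10522 and 11637, and *Sdf2l1*, another ER protein, from 3340.0 to 1489 and 1320 normalized counts. Of the genes that encode the arms, *Atf6* and *Ern1* differed from these decreases in SAM2. *Atf6* had log2 differences of -0.87 in SAM1 and 0.20 in SAM2 (adjusted p = 2.94e-09 and 0.00303 from limma). *Ern1*, which encodes IRE1, had -0.16 and 0.11 (adjusted p = 0.0128 and 0.0844). *Xbp1* fell with most of the list, at -0.67 and -0.64. *Eif2ak3*, whose product senses the same stress, was higher in both lines, as given above. Of 20 targets of p53, which shares *Sesn2* with ATF4, 12 fell and 4 rose in SAM1, and 7 fell and 8 rose in SAM2. The SAM2 counts are near the shares of all genes, 35.3% lower and 35.2% higher. *Perp* fell in both lines, with log2 differences of -3.04 and -3.44, as did *Plk2*, with -0.76 and -0.46. *Gtse1* rose by 1.87 and 1.81.

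**Figure D4:**
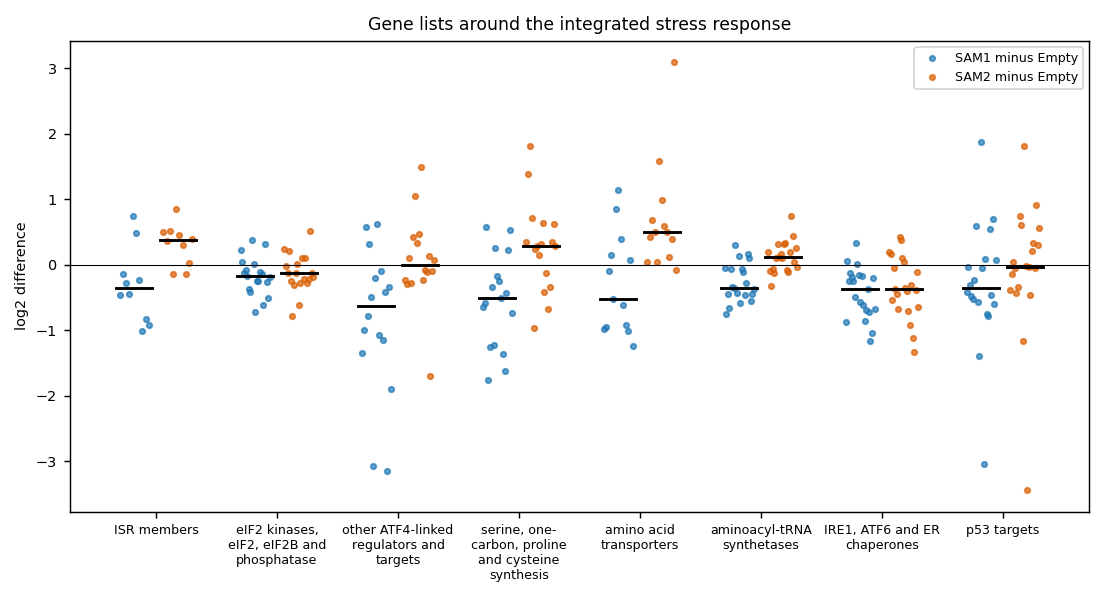
Log2 difference from Empty of each gene (points) in the 10 members and the 7 other lists, for SAM1 and SAM2, with the median of each list as a black bar. The medians of the members, synthesis enzymes, transporters and aminoacyl-tRNA synthetases lie below 0 in SAM1 and above 0 in SAM2. Those of the ER chaperone list lie at -0.38 and -0.37.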

How the data were processed

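PolyA+ RNA of 9 MEF libraries was sequenced as paired reads of 43 bases. Per the labels and the methods of the study, the authors checked reads with FastQC 0.11.0, aligned them to GRCm39 with TopHat2, Bowtie2 and SAMtools, counted them per gene with HTSeq and normalized them with DESeq2, so the deposited values are a signal in normalized counts (reads divided by a size factor of the library). Genes above 10 in at least 30% of libraries were kept, and all 15184 listed genes met this. The kit was directional, and the strand setting of the counting is not given in the sources used here. At a tolerance of 0.01, 100% of values in each library were whole multiples of 1 read, so reads were recovered for the count tests, in which edgeR called 11301, 10634, 9320 and 8168 genes for SAM1 against Empty, SAM2 against Empty, SAM2 against SAM1 and all Hnrnpk_SAM libraries against Empty.

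Log2(value + 1) was fitted with limma 3.58.1 (R 4.3.3, empirical Bayes with a trend) across all genes, with 3 groups or, for the pooled comparison, 2, and p-values were adjusted by Benjamini-Hochberg, with no filter beyond that of the authors. The scripts were tested on simulated data. Alternatives were pseudocounts of 0.5 and 10, genes above 10 in every library, quantile normalization, TMM factors, a replicate block, no trend, edgeR 4.0.16, DESeq2 1.42.0, leaving out each library, windows of 1 and 5 Mb and, chosen after seeing the data, equal totals and a fit of only the groups compared. Same-numbered libraries correlated by 0.00237 to 0.117 in their deviations, and differently numbered ones by -0.122 to 0.046. These values are small, and numbers were not taken to pair the libraries. All pairs of replicates differed by more than sampling noise, by 1.46 or more in chi-square per gene. Transcript starts, lengths and neighbours came from GENCODE vM39 on GRCm39, and 17 older symbols were matched through RefSeq synonyms. The members and lists were chosen with earlier results of these data known. Genes named were the 10 members, *Hnrnpk*, for each list the 3 genes (of up to 6 allowed) with the smallest adjusted p in either line against Empty, and the 5 most correlated with *Atf4*. *Kdr*, *Nes*, *Atf6*, *Ern1*, *Xbp1*, *Eif2ak1*, *Eif2ak2* and the fibroblast markers were named after their values were seen.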

Additional observations from a re-analysis of the deposited data

Results flagged for a closer look

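The effect of a line, its difference from Empty, was itself tested between the lines. The test was SAM2 minus SAM1 in the limma fit with 3 groups. The genes tested were the 10 members, *Hnrnpk*, the 3 genes of each list with the smallest adjusted p and those most like *Atf4*. Of these 37, 35 passed, beside 60.3% of all genes. Most were picked by their differences or profiles in these same libraries, so this count is no result about them. All differences below are on the log2 scale, and a positive value means higher in SAM2. Among the members they were 0.50 for *Atf4*, 0.31 for *Ddit3*, 0.95 for *Asns*, 1.31 for *Trib3*, 0.79 for *Chac1*, 0.85 for *Sesn2*, 0.86 for *Psat1*, 0.54 for *Phgdh* and 0.10 for *Eif2ak3*. Apart from *Eif2ak3*, every SAM2 library of these members was above every SAM1 library. Among genes of the eIF2 list the differences were 0.33 for *Impact*, -0.40 for *Eif2b2* and 0.38 for *Ppp1r15b*. Of the other genes linked to ATF4, *Stc2* differed by 1.45, *Vldlr* by 1.98 and *Atf3* by 1.11. Amino acid enzymes and carriers reached larger values, with 2.47 for *Cth*, 1.51 for *Gpt2*, 1.24 for *Psph*, 3.03 for *Slc7a3*, 1.17 for *Slc7a5* and 1.03 for *Slc1a4*. The synthetases *Tars*, *Cars* and *Eprs* differed by 0.58, 0.65 and 0.58. In the ER list *Pdia6* and *Sdf2l1* were lower in SAM2, by -0.41 and -0.17, and *Hyou1* was higher by 0.15. Of the p53 targets *Perp* differed by -0.40 and *Plk2* by 0.30. *Hnrnpk* itself differed by 0.15 (adjusted p = 0.000288 from limma). Among the genes most like *Atf4*, a likeness that fixes the direction, *Pard6g* differed by 0.42, *Camk1* by 0.60, *Mthfd2* by 0.88, *Derl1* by 0.41 and *Ppp1r15a* by 0.77. Cell type markers and other genes named after their values were seen were not in this set. Of the markers, *Kdr* differed by -3.13.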

How the results depend on the processing

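Of 240 recomputed counts of calls, 227 stayed within 1.5 times the reported count. Quantile normalization gave 1 member lower in SAM2 against Empty and 1 in SAM2 against SAM1, and turned *Atf4* in SAM1 to 0.068 and *Psat1* in SAM2 to 0.029. Equal totals gave 0 members lower in SAM2 against Empty and 0 in the pooled comparison, and *Atf4* in SAM1 at 0.0053. The mean of the lines gave 4 members higher and 4 lower in the pooled comparison, beside 74.6% of all genes, at the same log2 differences. Leaving out 1 library moved the pooled count of members lower between 0 and 2 (0 without any 1 Empty replicate, 2 without any 1 SAM2 replicate). It also reversed the pooled log2 difference of *Asns* in some cases, within a range of -0.079 to 0.12, and of *Phgdh*, within -0.028 to 0.096. Apart from the mean of the lines, where only the error differs, the cause of these changes was not tested. With the replicate number as a block, *Ddit3* in the pooled comparison missed the threshold (-0.30, adjusted p = 0.0589 from limma), which left 0 members lower, and the block changed no other member's call. The block called 11631, 11095, 9812 and 7343 genes of all in SAM1 against Empty, SAM2 against Empty, SAM2 against SAM1 and the pooled comparison. Without it the counts were 11275, 10699, 9162 and 8179. The numbers were not taken to pair the libraries, though all correlations of same-numbered libraries were above 0.

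With 3 libraries a group and no stated separate cultures, the errors cover these libraries only. The small differences of *Atf4* and *Phgdh* in SAM1 and of *Ddit3* and *Psat1* in SAM2 depend on the scaling. Depth did not limit the members, whose lowest recovered count was 1631 reads.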
